A study of Cicer arietinum with 11 samples.

Results

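The germinating seedling of chickpea (Cicer arietinum, genotype ICC4958) was compared with each other tissue of a transcript atlas built around flower development. It is 1 of 11 samples, and the whole comparison rests on that 1 library. The 10 others were young leaves of mature plants, shoot apical meristem taken from plants 20 days old, flower buds at stages 1 to 4 and flowers at stages 1 to 4, the last 8 from mature plants and called reproductive here. Seedlings grew in a culture room and mature plants in the field, and for the meristem plants the labels' protocols do not say which of these applied. The labels name the same genotype for all 11 libraries and no treatment, and do not say how many plants went into each. Levels are RPKM, the reads of a transcript scaled by its length and by the reads of its library. Of 34760 transcripts, 33581 reached an RPKM of at least 1 in the seedling or in any other library and were compared. The lowest maximum kept was 1.00 RPKM and the highest left out was 0.998 RPKM.

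Germination turns a dry embryo into a plant that at first lives on reserves laid down in the seed and then takes up photosynthesis. A seedling carries root tissue as well as shoot tissue, whereas a leaf, a shoot apex, a bud and a flower are all shoot organs. The shoot apical meristem is the group of dividing cells from which leaves and stem are formed. Which organs of the seedling were collected is not given in the sources used here. The files give transcript IDs without gene names, and 0 of the 34760 IDs were found in a reference table of 29938 genes. Transcripts are therefore given by ID alone, what they encode is not stated, and the tissue labels could not be checked against marker genes.

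With 1 library per tissue or stage there was no replicate check, so differences are described without a test. Differences are on the log2(RPKM + 1) scale, and a transcript is called higher or lower where the difference is at least 2, that is 4-fold. This scale understates the change of low transcripts. The seedling library held 23927246 mapped reads, and the others between 14536530 and 35643139. Intervals below are 95% Poisson intervals from the recovered reads and cover counting error only. Growing place, plant age and tissue run together in most of these comparisons and cannot be told apart. In whole tissue, a lower value from fewer cells of a type and one from less RNA per cell cannot be told apart either.

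The seedling expressed a broader set of transcripts than any other tissue at a low threshold. It had 30066 transcripts at 1 RPKM or more, against 27059 in young leaves to 29588 in the shoot apical meristem. Most of this set was common to the plant: 21322 of the 30066 (70.9%) were at 1 RPKM or more in all 10 other libraries, 2888 (9.61%) in 9 of them, and 449 (1.49%) in none. The seedling was also the library with the fewest compared transcripts at exactly 0, with 564 (1.68%), against 606 in flower 2 to 1317 in young leaves. The 1 RPKM minimum enters this ranking. The 449 transcripts compared through the seedling alone cannot be at 0 there, and only 12 were compared through flower 2 alone. The seedling did not keep its lead in detected transcripts under other settings. At 5 RPKM or more it had 17879 transcripts and ranked 7 of 11. After every library was thinned to the 14536530 reads of the shallowest one, it had 25660 transcripts with at least 10 reads and ranked 3 of 11.

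The most abundant seedling transcripts were mostly abundant everywhere. The 100 highest held 22.9% of the seedling's summed RPKM, against 15.4% in flower bud 1 to 40.2% in young leaves. Of these 100, 76 were at 100 RPKM or more in all 10 others and 39 had their highest level in the seedling. In 13 the seedling stood 4-fold above every other library, as it did in 398 (1.19%) of all compared transcripts. The seedling's levels chose these 100, which favours high ranks there, so the counts of 39 and 13 are descriptions only. Ca_TC25222 had 8659 RPKM in the seedling, against 12510 in young leaves, 4337 in the shoot apical meristem, 2087, 9868, 8458 and 2292 in flower buds 1 to 4, and 15430, 9521, 5720 and 2183 in flowers 1 to 4. Ca_TC24113 had 6878 RPKM in the seedling, against 8476 in young leaves, 3466 in the shoot apical meristem, 945, 7480, 7902 and 2100 in flower buds 1 to 4, and 14300, 7717, 5021 and 2098 in flowers 1 to 4. The seedling ranked 5 of 11 for the first and 6 of 11 for the second, and other libraries held higher levels of both.

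Set against each library in turn, the seedling lay within 2-fold of it for 66.7% of compared transcripts in young leaves to 75.1% in flower 2. Against young leaves it was higher for 2503 transcripts (7.45%) and lower for 867 (2.58%), the widest gap of the 10. Against the shoot apical meristem it was higher for 1215 (3.62%) and lower for 1200 (3.57%), the smallest total of the 10 at 2415. All 10 comparisons use the same seedling library and are not independent of each other.

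Against the flower buds, more transcripts were higher than lower in the seedling at every stage with the pseudocount of 1, but with one of 5 the lead turned for flower bud 3 (573 higher, 574 lower) and flower bud 4 (569 higher, 721 lower). The seedling was higher than flower bud 1 for 1746 transcripts (5.20%) and lower for 1263 (3.76%). It was higher than flower bud 2 for 1588 (4.73%) and lower for 1305 (3.89%). It was higher than flower bud 3 for 1562 (4.65%) and lower for 1371 (4.08%), and higher than flower bud 4 for 1565 (4.66%) and lower for 1449 (4.31%).

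Against the flowers the direction that led changed with the stage and with the pseudocount. With a pseudocount of 0.1 higher transcripts led against all 4 flowers, for instance with 3671 higher and 2032 lower against flower 3, and with 5 lower ones led against all 4, with 408 higher and 625 lower against flower 3. The seedling was higher than flower 1 for 1330 transcripts (3.96%) and lower for 1326 (3.95%), and higher than flower 2 for 1184 (3.53%) and lower for 1340 (3.99%). It was higher than flower 3 for 1363 (4.06%) and lower for 1257 (3.74%), and higher than flower 4 for 1255 (3.74%) and lower for 1527 (4.55%). Differences of at least 32-fold were more often lower than higher in the seedling against every flower, with 93 higher and 134 lower against flower 3 and 115 higher and 235 lower against flower 1. Against flower buds 1 to 4, 147, 129, 130 and 142 were higher and 134, 145, 165 and 237 lower by that much. Against young leaves 171 were higher and 6 lower by that much, and against the meristem 73 higher and 37 lower.

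Counting error touched few of these calls: intervals of both libraries were apart for 100% of calls in 9 comparisons and for 1583 of 1588 higher and 1304 of 1305 lower calls against flower bud 2. Scaling mattered more. The median log2 difference of all compared transcripts was 0.27 against young leaves, -0.21 against the meristem and -0.20 to 0.10 against reproductive libraries. With median-of-ratios scaling it was 0.01 to 0.04 against all 10. That scaling gave 2133 higher and 1390 lower against young leaves (60.5% higher, against 74.3% as deposited), with 57.8% under quantile normalization. It gave 1527 higher and 815 lower against the meristem (65.2% higher, against 50.3% as deposited). Against flower 3 it turned the lead, with 1313 higher and 1396 lower, as quantile normalization did, with 1212 higher and 1374 lower. Quantile normalization also turned the narrow lead against flower 1, with 1412 higher and 1436 lower. Of the 3 scalings, the near balance with the meristem was seen only with RPKM as deposited. With a pseudocount of 0.1 the higher counts ran from 2261 to 4780 and the lower counts from 1638 to 2377, and with 5 they ran from 408 to 813 and from 392 to 819.

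**Figure D1:**
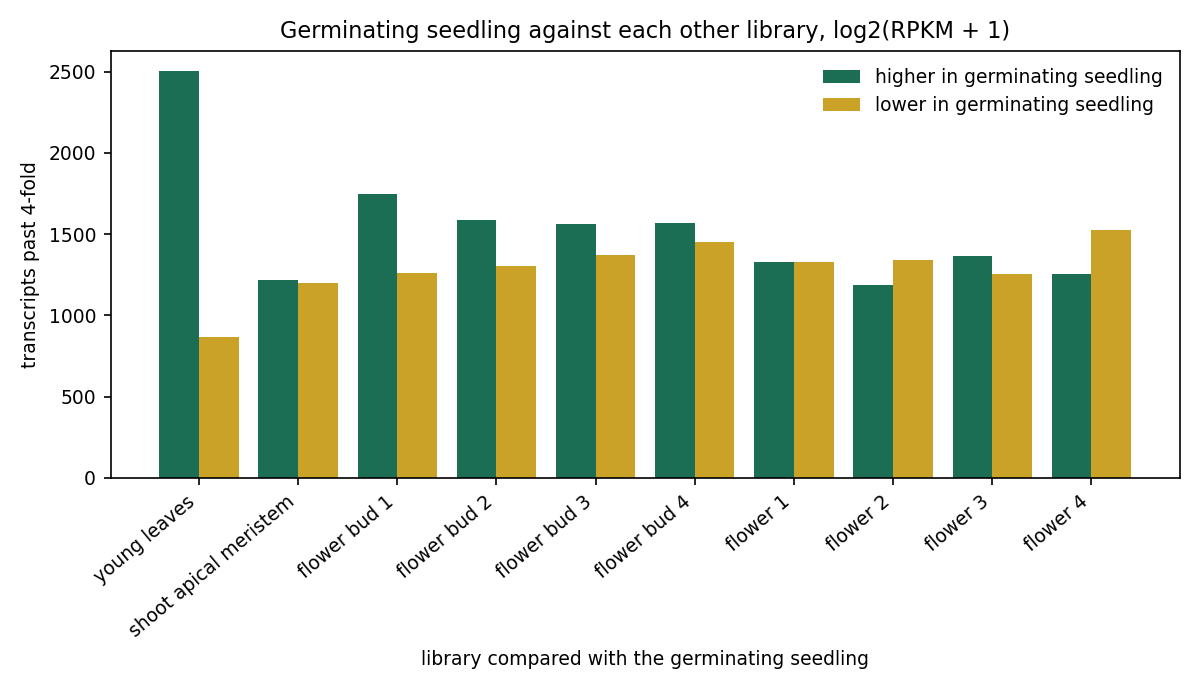
Number of transcripts at least 4-fold higher (green) or lower (yellow) in the germinating seedling than in each other library, of 33581 compared on log2(RPKM + 1). Young leaves stand out with 2503 higher and 867 lower, and the shoot apical meristem is near balance at 1215 and 1200 before any rescaling.

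Which tissue came closest depended on what was compared. By the rank order of all compared transcripts it was the shoot apical meristem, with a Spearman correlation of 0.771, followed by flower 3 (0.758), flower 2 (0.751), flower 4 (0.745) and flower 1 (0.742). Flower bud 2 (0.725), young leaves and flower bud 3 (0.721 each), flower bud 4 (0.714) and flower bud 1 (0.709) were farther. The meristem's own highest correlation was also with the seedling, but narrowly, as it was 0.768 with flower bud 1 and 0.765 with young leaves. By median absolute difference the meristem was nearer flower bud 1 (0.551) than the seedling (0.616). The 8 reproductive libraries had a nearest neighbour at 0.914 or more and young leaves one at 0.768. Among transcripts that reached 5 RPKM in some library, the meristem (0.714) and flower 3 (0.713) were nearly level. Apart from those limited to 5 RPKM, the correlations run across 33581 transcripts, which are not replicates. Those with the seedling all share its library.

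By the typical size of a difference, flowers 2 and 1 came closest instead. The median absolute difference was 0.521 from flower 2 and 0.523 from flower 1, followed by 0.538 from flower bud 4 and from flower 4. It was 0.557 from flower bud 3, 0.576 from flower bud 2, 0.596 from flower 3, 0.616 from the meristem, 0.625 from flower bud 1 and 0.663 from young leaves. After median-of-ratios scaling the meristem was at 0.564, still farther than flower 2 at 0.526. Among the most abundant transcripts, flower buds 2, 1 and 3 came closest: the seedling's 500 highest shared 352 (70.4%) with the 500 highest of flower bud 2, 347 with flower bud 1 and 334 with flower bud 3. They shared 327 with flower 3, 322 with the meristem, 298 with flower bud 4, 295 with flower 4, 294 with young leaves, 280 with flower 2 and 269 (53.8%) with flower 1. Of the seedling's 100 highest, 56 were among the 100 highest of flower bud 1, 55 among those of flower bud 2 and of flower 3, and 38, the fewest, among those of flower bud 4. The meristem thus led on rank order and on the number of transcripts past 4-fold, with RPKM as deposited and after median-of-ratios scaling. That scaling gave 1527 higher and 815 lower against the meristem, and 1265 higher and 1265 lower against flower 2, the next nearest. Flower 2 led on the median difference and flower bud 2 on the 500 most abundant. Under quantile normalization the meristem and flower 3 were level in transcripts past 4-fold, with 1532 higher and 1054 lower against the meristem and 1212 and 1374 against flower 3.

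**Figure D2:**
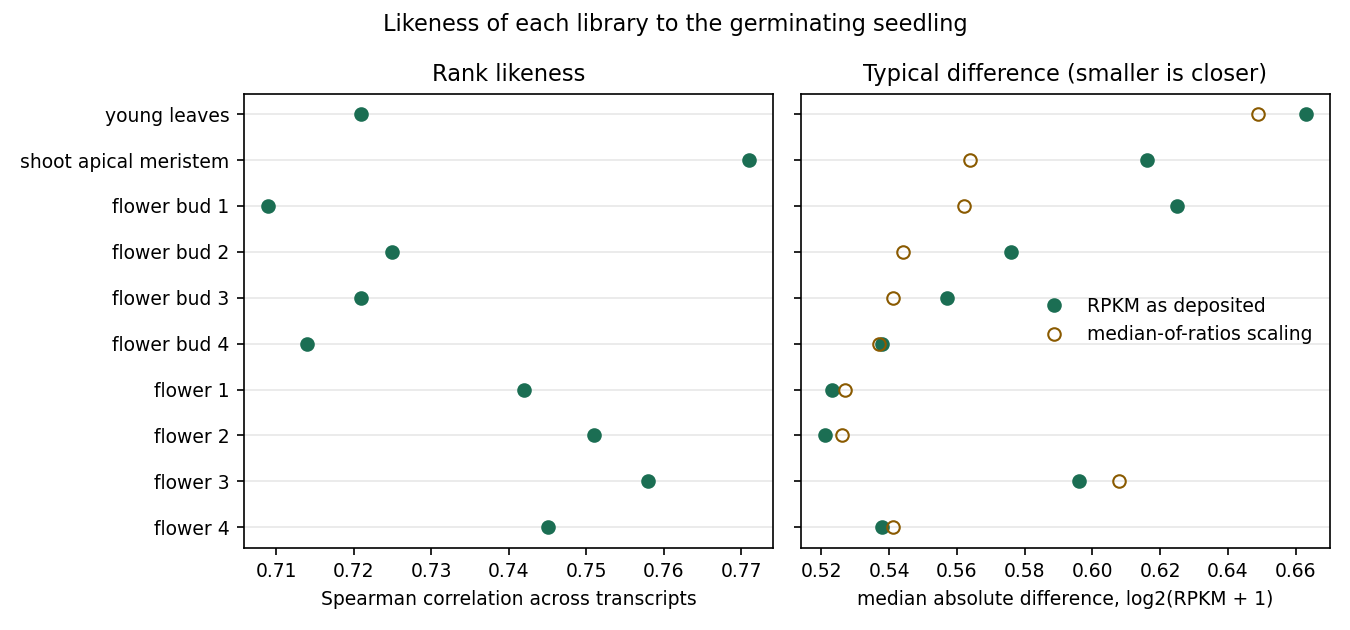
Spearman correlation of each library with the germinating seedling (left) and the median absolute difference from it on log2(RPKM + 1) (right), as deposited (filled) and after median-of-ratios scaling (open); both axes start above 0. The shoot apical meristem has the highest correlation, 0.771, while flower 2 has the smallest typical difference, 0.521.

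Most differences of the seedling spanned a few libraries, but a block of transcripts was 4-fold higher in the seedling than in all 10 others. Of the compared transcripts, 3978 (11.8%) were at least 4-fold higher in the seedling than in at least 1 other library and 5032 (15.0%) were lower than in at least 1, with 324 in both lists and 24895 (74.1%) in neither. Higher transcripts thinned out with the number of libraries passed, to 169 at 7 libraries, and then mounted again, with 184 at 8, 203 at 9 and 398 at all 10. Lower transcripts numbered 160 at 7 libraries and 204 at 8, and then 39 at 9 and 7 at all 10.

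**Figure D3:**
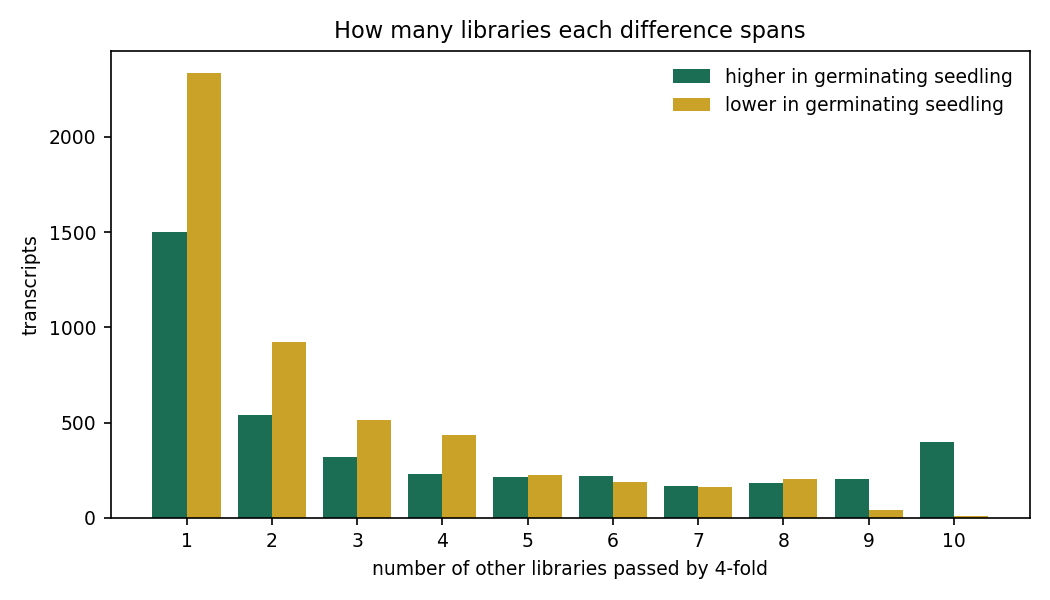
Number of transcripts by how many of the 10 other libraries the germinating seedling passed by 4-fold, higher (green) or lower (yellow). The higher bars climb from 169 at 7 libraries to 398 at 10, while the lower bars reach 204 at 8 libraries and end at 7.

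The 398 transcripts (1.19% of those compared) that stood 4-fold above all 10 others were the largest such set of any library. The shoot apical meristem had 219 (0.652%), flower bud 1 had 113 (0.336%) and young leaves had 85 (0.253%), and the other 7 libraries had 0 to 13. The number of similar tissues in the series differs between libraries, and its part in these counts was not tested. The intervals of the seedling and of every other library were apart for all 398, but their choice as 4-fold apart in the same values favours this. Without the meristem among the others the set held 516, and without any other single library between 399 and 424. It held 198 with a pseudocount of 5 and 1005 at a threshold of 2-fold.

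**Figure D4:**
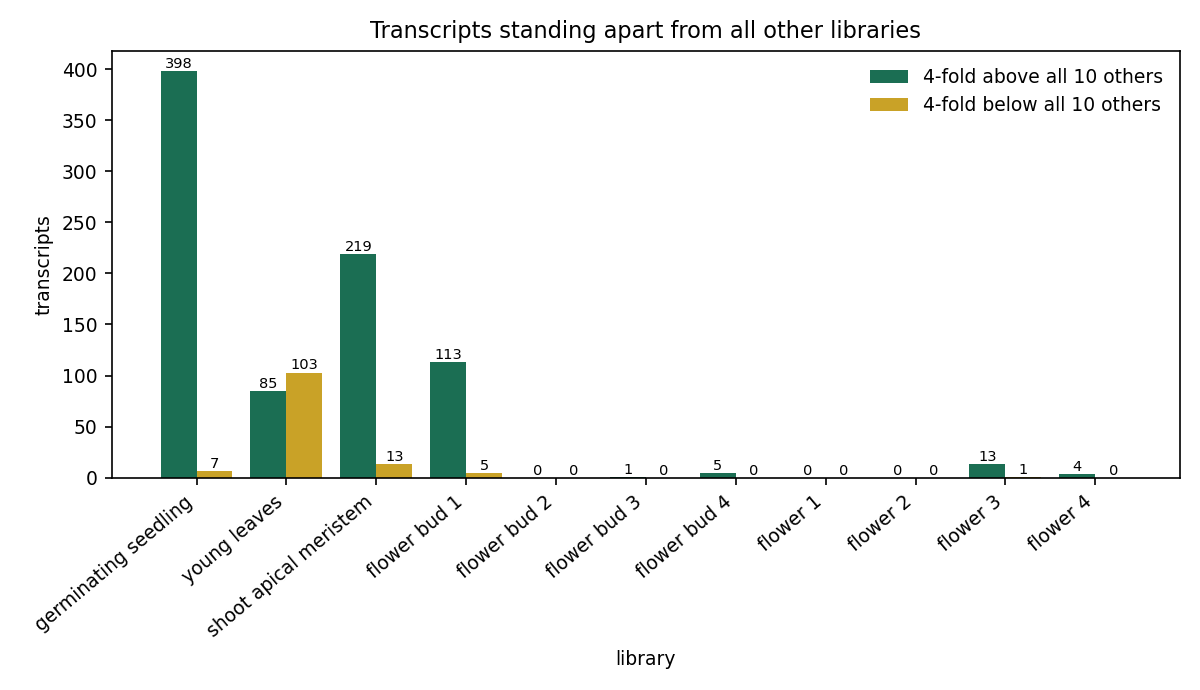
Number of transcripts in each library at least 4-fold above (green) or below (yellow) all 10 other libraries on log2(RPKM + 1). The germinating seedling has the most above, 398, and 7 below; young leaves have the most below, 103.

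The levels of these 398 transcripts ran from 3.32 to 3220 RPKM in the seedling. Their median level was 28.1 RPKM in the seedling, with quartiles of 13.1 and 90.1, and 93 of them reached 100 RPKM. Their highest level elsewhere had a median of 1.90 RPKM and reached 640 RPKM, and 140 (35.2%) stayed under 1 RPKM in every other library. Together they held 5.96% of the seedling's summed RPKM and 5.75% of its reads, against 0.152% of summed RPKM in flower bud 1 to 0.396% in the meristem. The seedling's levels chose this set, so its seedling share is a description only.

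The levels of these transcripts in the other tissues were spread widely. The meristem had the next highest level for 96 (24.1%), close to the 25.0% of all compared transcripts that were highest there among the 10. Flower 3 was next for 70 (17.6%, against 8.85% of all compared) and flower 4 for 41 (10.3%, against 7.43%). Flower bud 1 was next for 31 (7.79%, against 15.4%), and young leaves for 51 (12.8%, against 11.8%). At 1 RPKM or more, 176 (44.2%) were found in the meristem, 161 (40.5%) in flower 3 and in flower 4, 135 (33.9%) in young leaves and 119 (29.9%) in flower bud 2. Of all 33581 compared transcripts, 29588 reached that level in the meristem, 27504 in flower 3, 28683 in flower 4, 27059 in young leaves and 29079 in flower bud 2. The set was chosen to be lower in all 10 others, which enters its lower shares. All shares here rest on RPKM as deposited and were not tested.

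Ca_TC06623 had the largest gap of the 398. It had 1076 RPKM in the seedling from 29614 reads, with an interval of 1064 to 1089, against 0.032 in young leaves, 0.060 in flower 2 and 0 in the other 8 libraries. The 2 reads of flower 2 were its highest level elsewhere, a log2 difference of 9.99, and the ratio of 18070 carries a counting interval of 5003 to 149300. The seedling stood far above all other libraries, which were at or near no reads.

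Ca_TC12032 had the next largest gap, a log2 difference of 9.53 from the meristem. It had 1548 RPKM in the seedling from 89513 reads, against 0.030 in young leaves and 1.09 in the meristem. Flower buds 1 to 4 had 0.147, 0.541, 0.662 and 0.752 RPKM, and flowers 1 to 4 had 0.267, 0.099, 0.061 and 0.033. Against the meristem's 83 reads the ratio was 1420, with a counting interval of 1146 to 1783. Outside the seedling it was low in every library, and least so in the meristem.

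The set of 7 transcripts (0.0208%) that were 4-fold below all 10 others was small and depended on which tissues stood among the others. Young leaves had 103 such transcripts, the meristem 13 and flower bud 1 had 5. Without young leaves among the others the seedling's set held 31, and without the meristem 19. It held 81 with a pseudocount of 0.1, 0 with 5, and 4 after median-of-ratios scaling. All 7 had seedling intervals below those of every other library, which their choice from the same values likewise favours.

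Ca_TC17253 was the lowest of these relative to the rest. It had 0.837 RPKM in the seedling from 16 reads, against 16.9 in young leaves and 17.4 in the meristem. Flower buds 1 to 4 had 86.3, 119.8, 162.4 and 197.2 RPKM, and flowers 1 to 4 had 172.4, 173.6, 199.0 and 277.7. The log2 difference from young leaves was -3.28, and young leaves were 20.2 times the seedling with a counting interval of 12.2 to 35.6. The seedling was lowest, young leaves and meristem intermediate, and all reproductive libraries higher.

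Ca_TC05847 was low in the seedling alone rather than in vegetative tissue as a whole. It had 1 read in the seedling, 0.0089 RPKM, against 16.9 in young leaves and 16.6 in the meristem. Flower buds 1 to 4 had 11.9, 14.8, 11.1 and 13.3 RPKM, and flowers 1 to 4 had 12.4, 6.51, 4.47 and 9.74. The log2 difference from flower 3, the nearest, was -2.44. Flower 3 was 502 times the seedling, with a counting interval of 89.6 to 19860 from the single seedling read. With a pseudocount of 5 the log2 differences of Ca_TC17253 and Ca_TC05847 were -1.91 and -0.92, short of 4-fold.

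Against the 8 reproductive libraries as a set, the seedling had more transcripts above all of them than below. It was 4-fold above all 8 for 566 transcripts (1.69%) and below all 8 for 215 (0.640%). With a pseudocount of 0.1 the first count was 857, and with 5 it was 265. The meristem, set against the same 8 libraries, had 387 (1.15%) above and 213 (0.634%) below, and young leaves had 151 (0.450%) above and 449 (1.34%) below. The 3 tissues share these 8 libraries, so the counts are not independent.

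In the 566 higher ones the median was 22.1 RPKM in the seedling, against 1.71 in the meristem, 0.487 in young leaves and 1.57 for the highest reproductive library. The meristem was under 1 RPKM for 234 of them (41.3%, against 11.9% of all compared) and young leaves for 343 (60.6%, against 19.4%). These 566 include 140 that were under 1 RPKM in every other library and so were compared through the seedling alone. Their choice enters both shares, which are descriptions only. In the 215 lower ones the median was 0.359 RPKM in the seedling, against 0.891 in the meristem, 0.495 in young leaves and 12.4 for the lowest reproductive library. The meristem was under 1 RPKM for 109 of these (50.7%) and young leaves for 131 (60.9%). The seedling lay within 2-fold of the meristem for 145 (67.4%, near the 70.7% of all compared) and of young leaves for 162 (75.3%, against 66.7%). It was 4-fold lower than the meristem for 31 (14.4%, against 3.57% of all compared) and than young leaves for 19 (8.84%, against 2.58%), which the choice of transcripts low in the seedling enters. Of the 566 higher ones it lay within 2-fold of the meristem for 58 (10.2%) and of young leaves for 13 (2.30%), shares that the choice of transcripts high in the seedling enters.

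The 2 largest differences above the reproductive libraries were again Ca_TC06623, at 9.99 from flower 2, and Ca_TC12032, at 9.79 from flower bud 4. Below them, Ca_TC19405 had 0 reads in the seedling, against 0.021 RPKM in young leaves and 0.092 in the meristem. Its reproductive levels ran from 341 RPKM in flower 3 through a median of 1091 to 2174 in flower bud 4. Flower 3 was at least 4679-fold above the floor of 3 reads in the seedling library. Ca_TC11813 had 0 reads in the seedling, in young leaves and in the meristem. Its reproductive levels ran from 298 RPKM in flower 3 through a median of 1079 to 2406 in flower bud 4. Flower 3 was at least 4554-fold above the same floor. Both were at or near 0 in every vegetative library and at 298 RPKM or more in every reproductive one, without overlap.

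**Figure D5:**
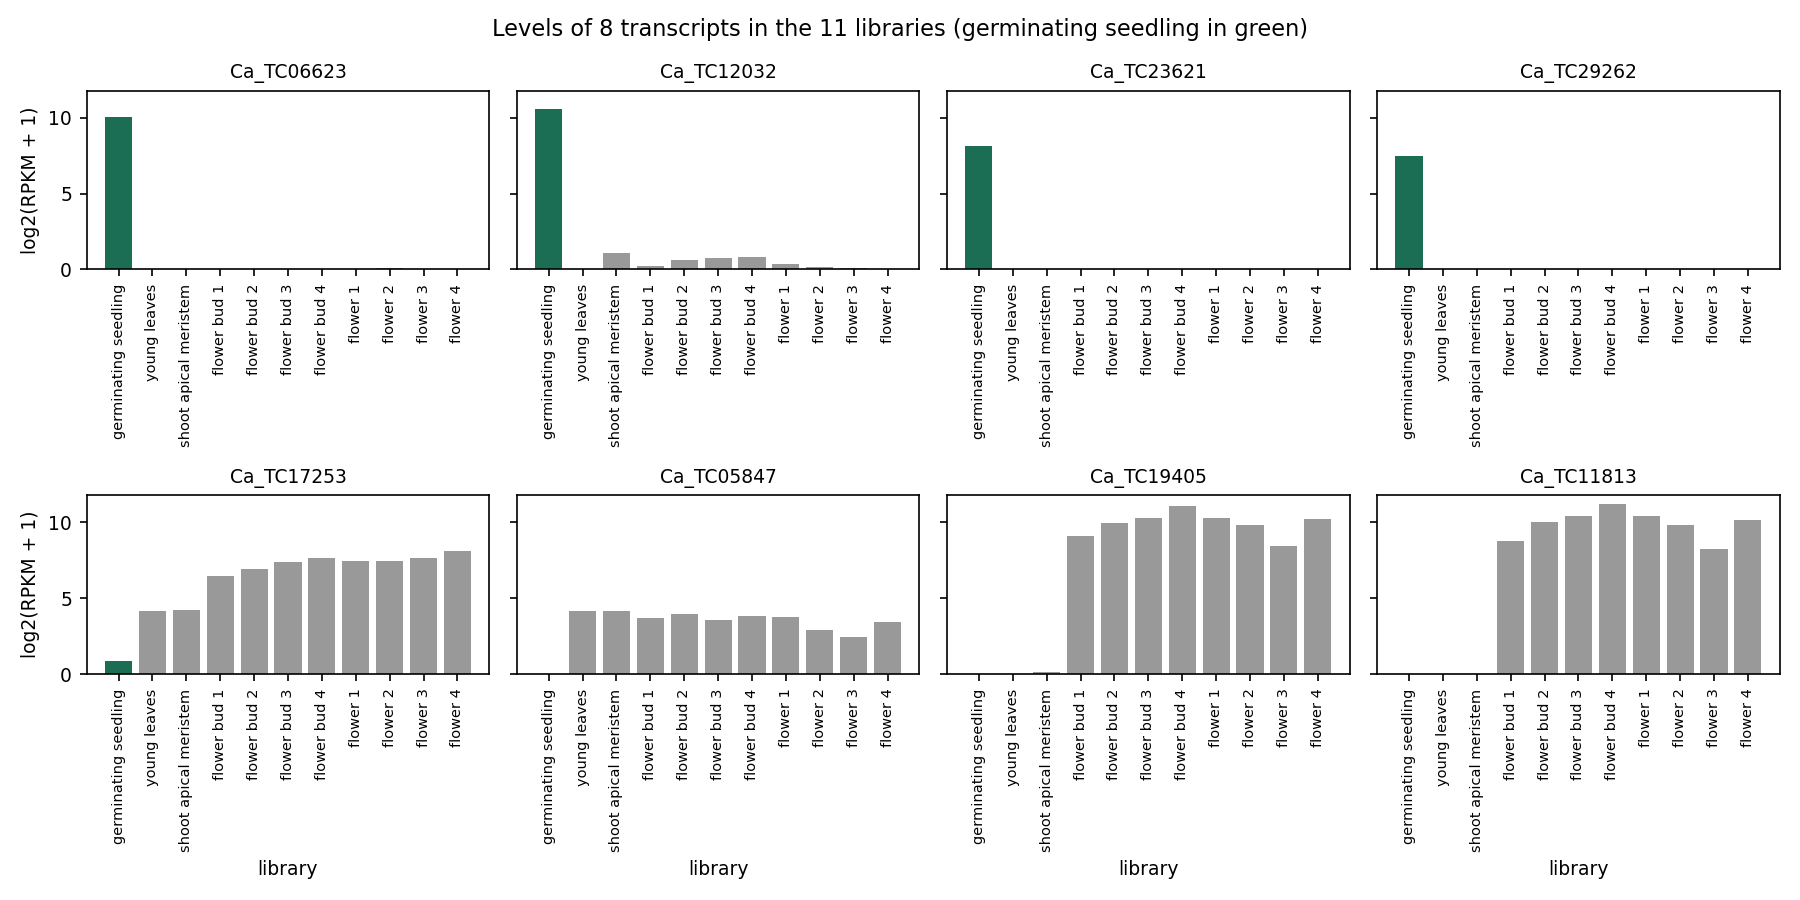
Levels of 8 transcripts, log2(RPKM + 1), in the germinating seedling (green) and the 10 other libraries (grey). The upper row shows 4 transcripts high in the seedling alone, led by Ca_TC12032 at 1548 RPKM; the lower row shows Ca_TC17253 and Ca_TC05847, lowest in the seedling, and Ca_TC19405 and Ca_TC11813, at 0 in the seedling and at 298 RPKM or more in all reproductive libraries.

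Against the shoot apical meristem alone, the 2 largest differences upward were Ca_TC06623, at 10.07 with 0 reads in the meristem, and Ca_TC12032, at 9.53. On the other side, Ca_TC17592 had 0.638 RPKM in the seedling, against 416 in the meristem, a log2 difference of -7.99. It had 3.88 RPKM in young leaves and 1.90 to 45.2 in the reproductive libraries, with a median of 6.07. Ca_TC16678 had 3.22 RPKM in the seedling, against 920 in the meristem, a log2 difference of -7.77. It had 67.8 RPKM in young leaves and 2.35 to 151 in the reproductive libraries. Both were high in the meristem, and the seedling ranked 11 of 11 for the first and 10 of 11 for the second.

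Seedling and meristem also shared a small set of high transcripts, and seedling and young leaves a smaller set of low ones. In 61 transcripts (0.182%) seedling and meristem both stood 4-fold above each of the other 9 libraries. The count was 3 for seedling and young leaves (0.00893%), 2 for seedling and flower bud 1 (0.00596%), 1 for seedling and flower 4 (0.00298%) and 0 for the seedling with any other library. Both stood 4-fold below the other 9 in 10 transcripts (0.0298%) for seedling and young leaves, 3 (0.00893%) for seedling and meristem and 0 for any other pair. A bud or flower in such a pair must also stand apart from its neighbouring stages, and flowers 1 and 2 differed 4-fold in 23 transcripts. Meristem and young leaves have no such neighbour, so these counts cannot rank them against buds and flowers.

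Against young leaves alone, Ca_TC12032 was 10.55 higher on the log2 scale and Ca_TC23842 10.51 higher. Ca_TC23842 had 1566 RPKM in the seedling, against 0.071 in young leaves from 1 read, 1.41 in the meristem and 0.066 to 1.59 in the reproductive libraries. On the other side, Ca_TC29994 had 0.504 RPKM in the seedling from 2 reads, against 393.5 in young leaves, 0.956 in the meristem and at most 3.38 in any reproductive library, a log2 difference of -8.04. Ca_TC23283 had 0 reads in the seedling, against 234.5 RPKM in young leaves, 0.870 in the meristem and at most 2.69 in any reproductive library. Young leaves were at least 273-fold above its seedling floor of 3 reads. Both were high in young leaves alone and low in the seedling as in the other libraries.

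Absences were few. Of the 564 compared transcripts with 0 reads in the seedling, 250 (44.3%) reached 10 RPKM in some other library and 70 (12.4%) reached 100 RPKM. At the median level of the other libraries, 288 of the 564 (51.1%) would have given at least 3 reads in the seedling, so for the rest the depth cannot tell a lower level from an equal one. Flower bud 1 held the highest level for 165 of them (29.3%, against 15.4% of all compared transcripts) and flower bud 4 for 82 (14.5%, against 6.30%), whereas the meristem held it for 38 (6.74%, against 25.0%) and young leaves for 34 (6.03%, against 11.8%). These shares were not tested. They rest on RPKM as deposited, where the median-of-ratios factor ran from 0.760 in young leaves to 1.19 in the meristem.

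Only 11 transcripts (0.0328%) were at 0 in the seedling and at 1 RPKM or more in all 10 others, against 45 at 0 in young leaves alone and 24 in flower 3 alone. Leaving young leaves out of the others made it 21. All 11 had a level above the seedling's 3-read floor in every other library, though their lowest levels elsewhere were only 1.00 to 2.41 RPKM. Ca_TC29571 had 0 reads in the seedling, against 3.13 RPKM in young leaves, 26.3 in the meristem, 5.50, 9.22, 14.9 and 13.5 in flower buds 1 to 4, and 10.7, 9.85, 2.41 and 7.60 in flowers 1 to 4. Its lowest other library, flower 3, was at least 5.87-fold above the floor. Ca_TC32373 had 0 reads in the seedling, against 2.07 RPKM in young leaves, 2.50 in the meristem, 3.49, 6.96, 12.5 and 44.4 in flower buds 1 to 4, and 43.8, 37.7, 5.52 and 44.4 in flowers 1 to 4. Young leaves were at least 2.94-fold above its floor.

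The reverse set was larger, with 28 transcripts (0.0834%) at 1 RPKM or more in the seedling and without a read in any other library. Of the other libraries, flower bud 1 had 6 such transcripts, the meristem 1 and the remaining 8 had 0. Most of the 28 were low, with a median of 2.51 RPKM and 12 reads in the seedling. Reads of these 28 are lower limits, as the recovered length is the shortest that fits. Ca_TC23621 had 284 RPKM from 1346 reads, at least 5095-fold above a floor of 3 reads over the other 10 libraries together. Ca_TC29262 had 173 RPKM from 659 reads, at least 2495-fold above the same kind of floor. With other libraries allowed up to 0.1 RPKM the set held 49. At 1 RPKM or more in the seedling and under 1 RPKM in all others were 449 (1.34%), against 11 to 175 confined in this way to another library. A bud or flower has similar stages among the others, which the seedling has not, and the part of this in both comparisons between libraries was not tested.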

How the data were processed

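mRNA libraries of 11 chickpea tissues or stages were analysed, 1 library each. Per the series' design text, the authors used NGS QC Toolkit to filter reads, took 34760 transcripts as the mapping target and deposited RPKM per transcript. The same text names DESeq, whose results are not used here. The aligner and how reads common to similar transcripts were assigned: not given in the sources used here. Levels of closely similar transcripts are thus uncertain. The 128 blank rows of each file were left out. The members and lists were chosen with earlier results of these data known.

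Library totals, lengths and whole reads were recovered from the RPKM values, which are whole reads over length and total. Reads came out whole for all 34703 transcripts above 0 (tolerance 3e-06 reads plus 4e-09 of the value) and added up to 99.952% of the total in the seedling and at least 99.995% in the others. Totals spanned 2.45-fold. At a length of 736 bases, the median, 1 read equals between 0.0381 and 0.0935 RPKM. Lengths are the shortest of at least 100 bases that fit, so reads of transcripts seen in 1 library are lower limits. The procedure was tested on simulated data.

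Computed here, with Python 3.11.15, numpy 2.4.6, pandas 2.3.3 and SciPy 1.17.1, were differences on log2(RPKM + 1), counts past 4-fold, Spearman correlations, exact Poisson intervals (95%), conditional binomial intervals of read ratios and floors of 3 reads. Named transcripts were the 2 largest differences in each direction against all others, the meristem, young leaves and the reproductive libraries, the 2 strongest absences each way and the 2 most abundant. Alternatives were other pseudocounts, filters, thresholds, scalings, thinning and leaving out single libraries. Gene lists were not tested, since IDs could not be matched to names.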

Additional observations from a re-analysis of the deposited data

How the results depend on the processing

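Each setting below changed 1 choice, except that thinning also replaced the RPKM minimum by 10 reads and that likeness after median-of-ratios scaling was also measured another way. Of 140 recomputed counts against single libraries, 98 were within 1.5 times the reported count; those that were not came from the pseudocount or, for young leaves, from scaling. The pseudocount also turned which direction led against flowers and late buds. Counts here follow the order young leaves, shoot apical meristem, flower buds 1 to 4 and flowers 1 to 4. With a pseudocount of 0.1, the transcripts higher in the seedling numbered 4780, 2261, 3157, 3041, 2967, 3020, 2670, 2457, 3671 and 2862, and the lower ones 1638, 2253, 2377, 2358, 2354, 2207, 2083, 2192, 2032 and 2326. With a pseudocount of 5, the higher ones numbered 813, 461, 638, 560, 573, 569, 509, 487, 408 and 445, and the lower ones 392, 460, 418, 472, 574, 721, 705, 686, 625 and 819. Transcripts lower than young leaves numbered 1390 with median-of-ratios scaling and 1485 with quantile normalization; the cause was not tested.

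The count of 398 above all others was 198 with a pseudocount of 5 and 1005 at 2-fold, and 399 to 516 with 1 other library left out. The count of 7 below all others was 81 with a pseudocount of 0.1, 0 with 5, 139 at 2-fold, 4 with median-of-ratios scaling and 7 to 31 with 1 other library left out. The 11 absences became 11 to 21 in the same way and the 28 transcripts seen in the seedling alone 29 to 38, or 49 where others could hold under 0.1 RPKM. The 566 above all reproductive libraries became 857 with a pseudocount of 0.1 and 265 with 5. Transcripts detected in the seedling numbered 17879 at 5 RPKM, where it ranked 7, and it ranked 3 after thinning. The 100 transcripts with most reads held 18.8% of seedling reads. The meristem's lead in likeness was 0.0131 in Spearman correlation and 0.00068 among transcripts reaching 5 RPKM, and it turned to -0.0376 in median absolute difference after median-of-ratios scaling. Of 80 recomputed named differences, 75 stayed on their side of 4-fold. No paired analysis was possible because each tissue or stage had 1 library.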

Other observations

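Transcript lengths recovered from the values give a further description. The 398 transcripts 4-fold above all other libraries had a median length of 537 bases, against 752 bases for all compared transcripts, with upper quartiles of 1160 and 1480 bases. The 28 transcripts with reads in the seedling alone had a median length of 156 bases, and the 11 at 0 in the seedling alone one of 157 bases. Short transcripts gather few reads, and for transcripts read in 1 library the recovered length is the shortest that fits, so the part of length in these sets was not tested.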
